A study of Mus musculus with 12 samples.

Results

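The 10 genes described here encode the contents of cytotoxic granules and the cytokine that cytotoxic and Th1 cells secrete with them. They are the granzymes Gzma, Gzmb, Gzmc, Gzmd, Gzme, and Gzmk, the pore-forming protein Prf1 (perforin), the granule proteins Nkg7 and Srgn (serglycin), and Ifng (interferon gamma). They were chosen by symbol, with earlier results of these data known, from the 32051 genes of the expression table, and 10 of 10 were present. Expression was measured by RNA sequencing in Th9 cells, CD4+ T cells that make IL-9, in 4 groups of 3 libraries. Naive CD4+ T cells from spleens of C57BL/6J mice aged 6 to 8 weeks were activated through CD3 and CD28 and polarized with IL-4 (10 ng/mL) together with TGF-β (1 ng/mL). An antibody to IFN-γ (10 μg/mL) and one to IL-12 were present during the first days of culture in all groups, and RNA was taken on day 4. The groups received DMSO (the vehicle), 10 μM EpA (endomelipeptide A, a fungal cyclic peptide), 5 μM fatostatin (an inhibitor of SREBP), or EpA plus fatostatin. The study calls its Th9 libraries independent samples, but the sources used here do not say whether the replicates of a group came from separate mice or cultures. The p-values measure the spread between these libraries, which may be technical.

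Cytotoxic granules are secretory lysosomes that fuse with the plasma membrane at the contact with a target cell. Perforin opens the target's membrane, granzymes enter and cleave proteins there, and serglycin is the proteoglycan on which granzymes and perforin are packed. The granzymes are serine proteases, of which granzyme A cuts after basic residues and granzyme B after aspartate, as caspases do. Such genes are best known from CD8+ T cells and NK cells, and granzymes are also transcribed by activated CD4+ T cells. IFN-γ acts through its receptor and the kinases JAK1 and JAK2 on genes such as the guanylate-binding proteins, and it opposes differentiation toward cells that make IL-4 or IL-9.

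The genes lie at few places in the mouse genome (GRCm38). Gzmb (ENSMUSG00000015437, chr14:56258838-56262260), Gzmc (ENSMUSG00000079186, chr14:56231441-56234656), Gzmd (ENSMUSG00000059256, chr14:56129556-56132608), and Gzme (ENSMUSG00000022156, chr14:56117626-56120625) are members of 1 cluster on the minus strand. This cluster holds 7 granzyme genes in 144635 bp, with no other coding gene between them. Gzma (ENSMUSG00000023132, chr13:113093825-113100981) and Gzmk (ENSMUSG00000042385, chr13:113171608-113225908) are 70626 bp apart on the minus strand of chromosome 13. Prf1 (ENSMUSG00000037202, chr10:61297833-61304680, plus strand), Srgn (ENSMUSG00000020077, chr10:62493833-62527451, minus strand), and Ifng (ENSMUSG00000055170, chr10:118441046-118445892, plus strand) are on chromosome 10. Nkg7 (ENSMUSG00000004612, chr7:43437073-43438249, plus strand) is on chromosome 7.

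The 250 bases before the start of 4 genes are shown because their levels carry the comparisons below, Gzma, Gzmb, and Nkg7 as genes that were lower with EpA and Srgn as a gene that was higher. The sequences are from RefSeq (GRCm38.p6), which had a start for 10 of the 10 genes, and read 5′ to 3′ toward the start. Capitals mark matches, on either strand, to the letters of 6 motifs of known regulators. These were TGANTCA (AP-1), TGACG (CRE), TGTGGT (Runx), GTGTGA (T-box), GCGTG (the XRE of the aryl hydrocarbon receptor), and TTCNNNGAA (STAT). Srgn has starts at 2 places, and the downstream start is shown because the window of the other held 0 matches.
Gzma, chr13:113100982-113101231, minus strand: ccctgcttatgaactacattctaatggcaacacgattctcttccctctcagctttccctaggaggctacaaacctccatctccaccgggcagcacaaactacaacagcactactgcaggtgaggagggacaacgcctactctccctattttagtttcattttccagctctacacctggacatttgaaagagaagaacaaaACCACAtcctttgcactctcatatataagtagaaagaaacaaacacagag
Gzmb, chr14:56262335-56262584, minus strand: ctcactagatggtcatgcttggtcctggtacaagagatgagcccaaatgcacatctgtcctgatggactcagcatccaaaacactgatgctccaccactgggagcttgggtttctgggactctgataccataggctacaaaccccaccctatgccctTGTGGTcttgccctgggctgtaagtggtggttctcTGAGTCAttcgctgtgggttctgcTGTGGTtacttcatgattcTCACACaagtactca
Nkg7, chr7:43436888-43437137, plus strand: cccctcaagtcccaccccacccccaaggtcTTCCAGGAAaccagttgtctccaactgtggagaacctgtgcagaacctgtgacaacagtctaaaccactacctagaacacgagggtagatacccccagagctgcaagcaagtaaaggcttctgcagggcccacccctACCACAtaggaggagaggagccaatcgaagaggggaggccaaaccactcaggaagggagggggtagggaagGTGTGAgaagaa
Srgn, chr10:62507758-62508007, minus strand: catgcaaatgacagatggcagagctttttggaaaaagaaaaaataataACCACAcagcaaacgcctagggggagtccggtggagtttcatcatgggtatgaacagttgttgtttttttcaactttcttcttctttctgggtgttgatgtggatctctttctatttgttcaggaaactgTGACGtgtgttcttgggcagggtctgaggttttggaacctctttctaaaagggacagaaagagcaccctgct
The Runx letters were found before 8 of the 10 genes (Gzma, Gzmb, Gzmc, Gzmd, Gzme, Prf1, Nkg7, and Srgn) and in 14% of 32817 promoters of the same length. Srgn counts through 1 of its 2 windows, here and for the CRE letters, while the share of all promoters is per window. The windows of Gzmc, Gzmd, and Gzme belong to duplicated genes and are not independent. The AP-1 letters were found before Gzmb alone among the 10 genes, and in 6.75% of all promoters. The T-box letters, which T-bet and Eomes can bind, were before 3 genes (Gzmb, Gzmk, and Nkg7) and in 12.3% of promoters. The CRE letters were before 4 genes (17.7% of promoters), the STAT letters before 2 (7.01%), and the XRE letters before 0 (28.1%). A match in these windows is a description of letters and not a binding site.

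Values are FPKM, reads on a gene scaled by exon length and library size, so levels can be compared between genes. Reads on genes numbered 36607305 to 44375793 per library, and 1 read on 1 kb of exon was worth 0.0225 to 0.0273 FPKM. In the DMSO libraries Gzmb had the highest level of the 10 genes (147 ± 3.42 FPKM, mean ± SD, n = 3), at the 98.1st percentile of the 13733 tested genes. Srgn followed at 131 ± 1.86 and Gzma at 35.7 ± 2.31 FPKM, the 97.7th and 89.3rd percentiles. Nkg7 had 8.02 ± 0.692 and Gzmc 3.30 ± 0.492 FPKM. Ifng was between 2.02 and 2.54 FPKM. At the bottom, Prf1 (0.189 ± 0.0567), Gzmk (0.179 ± 0.0601), and Gzmd (0.137 ± 0.0577) overlapped one another, and Gzme was listed at 0 in all 3 libraries. Above these low genes, neighbors in this order did not overlap. The granule contents were thus measured as abundant granzyme and serglycin messages beside a perforin message that rested on 16 to 24 reads per DMSO library. Sequencing was paired-end, and the reads recovered for Prf1 were even in number in all 12 libraries. If the 2 mates of a pair were counted separately, the independent fragments were fewer than the reads given in this report. These levels are averages over a culture, in which fewer cells that express a gene and less RNA per cell cannot be told apart.

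**Figure D1:**
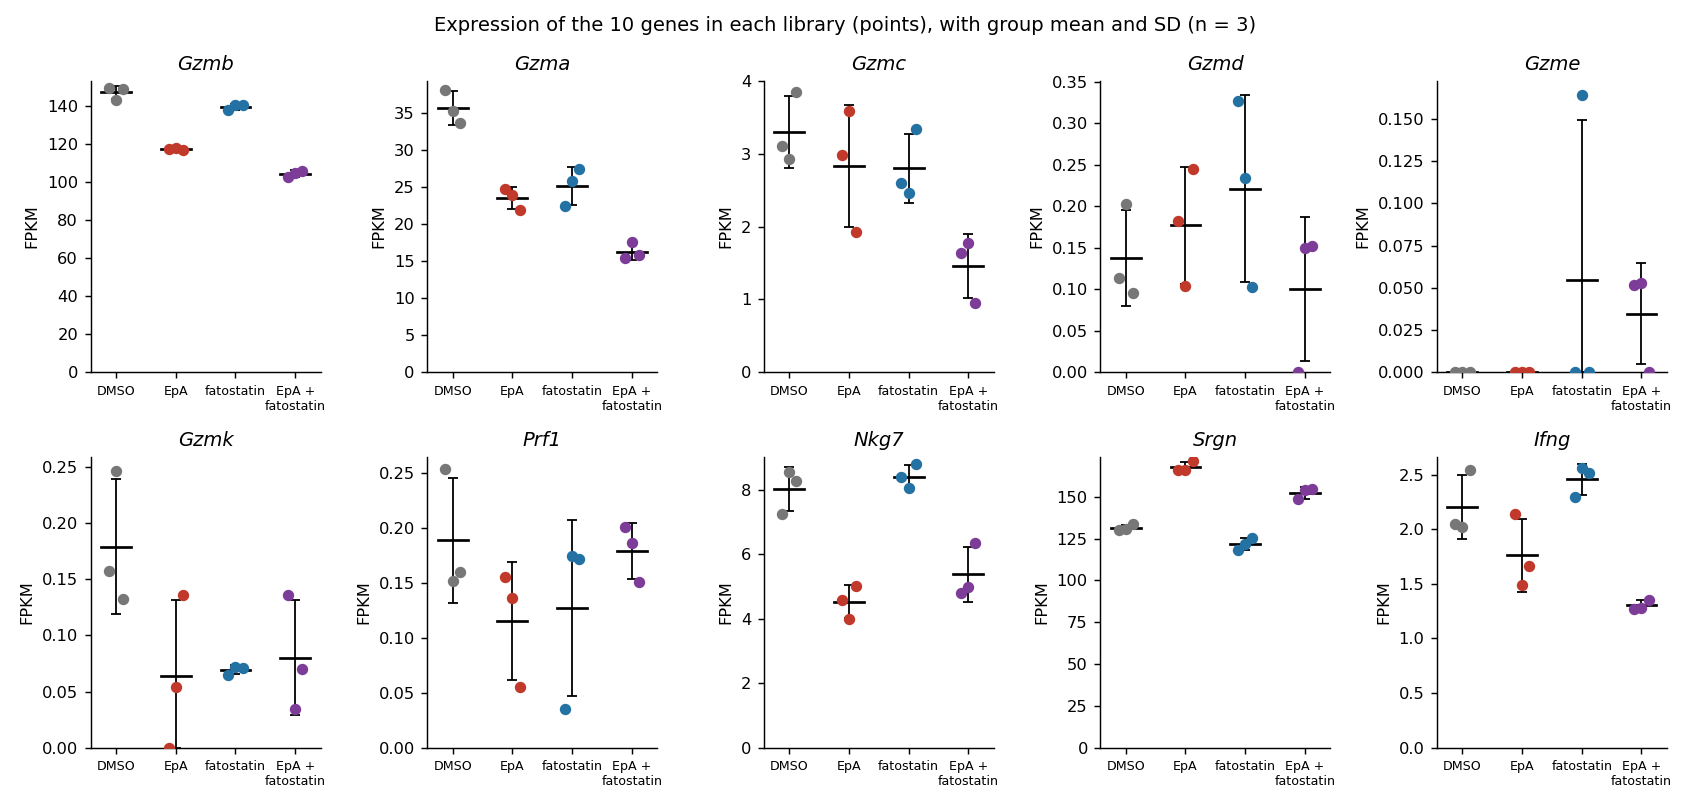
Each panel plots the FPKM (linear axis from 0) of 1 gene in the 12 libraries (points), with the mean and SD of each group of 3 (black bars, cut at 0). The EpA libraries lie below the DMSO libraries for Gzmb, Gzma, and Nkg7 and above them for Srgn, while the panels of Gzmd, Gzme, Gzmk, and Prf1 reach no more than 0.327 FPKM.

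The cultures had the markers of CD4+ T cells, with Cd3d, Cd3e, Cd3g, and Cd4 summing to 340 to 405 FPKM. Of 3 Th9 markers, Il9 averaged 54.6 FPKM in DMSO, 640 in EpA, 66.5 in fatostatin, and 821 in EpA plus fatostatin. Irf4 was at 143 to 168 FPKM in all libraries and was lower with EpA by limma (log2 fold change −0.12, adjusted p = 0.00185). Spi1 averaged 0.0609 FPKM and was too low to be tested. The 4 CD4+ T cell markers summed to 384.9 to 392.01 FPKM in DMSO, 339.6 to 348.4 in EpA, 392.6 to 405.4 in fatostatin, and 343.3 to 346.8 in EpA plus fatostatin. With EpA, Cd3d (log2 fold change −0.24), Cd3e (−0.33), and Cd3g (−0.27) were lower and Cd4 (0.15) was higher, each with an adjusted p below 0.05 by limma. The part of this shift in the results below was not tested. Markers of other cells were also measured, since these genes are highly expressed in NK and CD8+ T cells. Of 8 NK markers, Ncr1 and Klrb1c, which define NK cells, did not exceed 0.0659 FPKM in any library. Their sum was 6.33 to 6.79 FPKM in DMSO, 3.54 to 4.26 in EpA, 4.88 to 5.31 in fatostatin, and 2.68 to 3.01 in EpA plus fatostatin. Klrd1 and Klrk1, receptor genes that activated T cells can also express, made up most of it. Klrd1 had 4.88 FPKM in DMSO, 2.79 in EpA, 3.56 in fatostatin, and 1.94 in EpA plus fatostatin. The CD8 marker Cd8b1 was between 6.40 and 8.61 FPKM in all libraries, with no difference past the test (log2 fold change −0.03 with EpA, adjusted p = 0.877). Cd8a had 1.81 FPKM in DMSO, 0.802 in EpA, 1.52 in fatostatin, and 0.491 in EpA plus fatostatin. Klrd1, Klrk1, and Cd8a thus had the same order of group means as Gzma and Gzmb (DMSO, fatostatin, EpA, both compounds), and their part in the results below was not tested. The 6 B cell markers summed to 5.25 to 8.70 FPKM and the 7 myeloid markers to 0.575 to 1.47 FPKM. The 4 markers of mast cells and basophils summed to 0.605 to 1.67 FPKM. Of 3 markers chosen for gamma delta T cells, 0 were found under their symbols, so these cells were not assessed. Single low markers moved with treatment by limma. Cd79a (B cells) was lower with EpA (0.489 against 0.791 FPKM, log2 fold change −0.60, adjusted p = 0.0127) and higher with both compounds than with EpA (log2 fold change 0.72). Lyz2 (myeloid cells) was at 0.0371 FPKM in DMSO, 0.186 in EpA, and 0.200 in fatostatin. Mcpt8 (basophils) was higher with EpA (0.771 against 0.355 FPKM, log2 fold change 0.90, adjusted p = 0.0492). Their part in the results was not tested.

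The first comparison asked what EpA did to these genes in Th9 cells. Gzma, Gzmb, and Nkg7 fell and Srgn rose with EpA, and each of the 4 had EpA libraries that did not overlap the DMSO libraries (42.4% of all tested genes did not overlap). By limma on log2(FPKM + 0.1), 4 of the 8 members tested passed an adjusted p of 0.05, 1 higher and 3 lower, where 27.4% of all tested genes passed, 14.3% higher and 13.1% lower. At least 1.5-fold was reached by 2, both lower (3.38% of all tested genes in either direction, 1.94% lower). The median log2 fold change of the 8 was −0.32, and that of all tested genes was 0.00.

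Gzma was at 38.2, 35.2, and 33.6 FPKM in the DMSO libraries and at 24.8, 24.0, and 21.9 in the EpA libraries. The highest EpA library lay below the lowest DMSO library, and the mean was 1.51-fold lower with EpA (log2 fold change −0.60, SE 0.0784, adjusted p = 0.000197). Gzmb was at 149.6, 143.5, and 149.3 FPKM in DMSO and at 117.6, 117.9, and 116.8 in EpA. Its 3 EpA libraries differed by about 1 FPKM, and the mean was 1.26-fold lower (log2 fold change −0.33, SE 0.0196, adjusted p = 6.21e-07). Gzma therefore lay at the 1.5-fold threshold and Gzmb below it. Without DMSO replicate 1 or without EpA replicate 3 the log2 fold change of Gzma was −0.55 or −0.54, short of 1.5-fold, and 1 member in place of 2 was called.

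Nkg7, a membrane protein of cytotoxic granules, had the largest fold change of the 8 with EpA. It was at 7.23, 8.54, and 8.28 FPKM in DMSO and at 4.59, 3.98, and 5.01 in EpA. All 3 EpA libraries lay below the DMSO libraries (1.77-fold lower, log2 fold change −0.81, SE 0.110, adjusted p = 0.000233). Srgn moved the other way. It was at 130.1, 130.6, and 133.5 FPKM in DMSO and at 166, 166, and 171 in EpA, without overlap (1.28-fold higher, log2 fold change 0.35, SE 0.0245, adjusted p = 1.86e-06). As a result, the order of the 2 most abundant messages changed. In DMSO the ratio of Srgn to Gzmb was 0.891 ± 0.0203, and in EpA it was 1.43 ± 0.0319.

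Ifng was at 2.05, 2.02, and 2.54 FPKM in DMSO and at 2.14, 1.49, and 1.66 in EpA. The groups overlapped through EpA replicate 1, and the difference did not pass (log2 fold change −0.31, 95% CI −0.58 to −0.05, adjusted p = 0.0812). Without EpA replicate 1 the log2 fold change of Ifng was −0.45 and passed (adjusted p = 0.0113; range over the 21 alternatives 0.0113 to 0.272). Gzmc overlapped between EpA (1.93 to 3.59 FPKM) and DMSO (2.93 to 3.86 FPKM), with a log2 fold change of −0.25 (95% CI −0.79 to 0.29, adjusted p = 0.513). That value was −0.43 without EpA replicate 2, −0.13 without DMSO replicate 3, and −0.0025 without EpA replicate 3, and it passed in none of these fits.

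**Figure D2:**
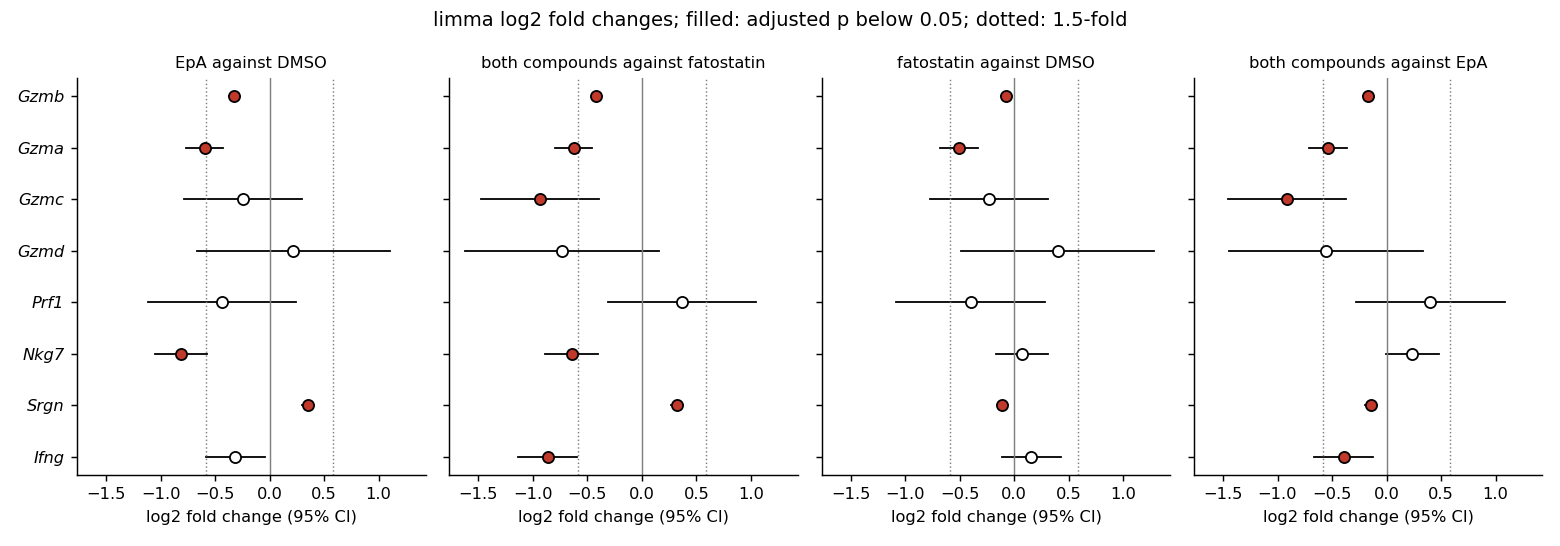
log2 fold changes (x axis) of the 8 tested genes (y axis) in 4 comparisons by limma, with 95% confidence intervals (lines). Filled points passed an adjusted p of 0.05, and dotted lines mark 1.5-fold. Gzma was lower in all 4 panels, whereas Srgn was higher in the 2 panels on EpA and lower in the 2 on fatostatin.

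The second comparison asked what fatostatin did without EpA. Gzma fell, and smaller changes in Gzmb and Srgn also passed, 0 higher and 3 lower of 8 tested (14% of all tested genes passed, 7.69% higher and 6.31% lower). Of the 8 tested, those 3 were also the ones whose groups did not overlap, as in 31.3% of all tested genes. Gzmk, too low to be tested, did not overlap either. At 1.5-fold, limma called 0 of the 8 (1.86% of all tested genes), and voom on reads recovered from the FPKM also called 0. By limma 3 of the 8 had an unadjusted p below 0.05, beside 3679 of the 13733 tested genes. Gzma was at 22.4, 25.7, and 27.4 FPKM with fatostatin, all below the DMSO libraries (1.42-fold lower, log2 fold change −0.50, SE 0.0784, adjusted p = 0.00123).

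Gzmb had 138, 140.5, and 140.5 FPKM with fatostatin, just below the lowest DMSO library (log2 fold change −0.08, adjusted p = 0.0209). That call was lost without DMSO replicate 1 (adjusted p = 0.0851), without DMSO replicate 3 (0.0819), and without fatostatin replicate 1 (0.0740), and in a fit on these 2 groups alone (0.0686; range over the 21 alternatives 0.00726 to 0.0851). Srgn had 118, 122, and 125 FPKM (log2 fold change −0.11, adjusted p = 0.0122), a call lost without DMSO replicate 3 (adjusted p = 0.0522; range over the 21 alternatives 0.00248 to 0.0522). Nkg7 was at 8.38, 8.04, and 8.78 FPKM, within the range of DMSO and above it in 1 library (log2 fold change 0.07, 95% CI −0.17 to 0.31). Ifng was at 2.30, 2.56, and 2.52 FPKM and also overlapped DMSO (log2 fold change 0.16, 95% CI −0.11 to 0.43).

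The next comparisons set EpA plus fatostatin against each compound alone. Every member above 1 FPKM except Nkg7 and Srgn had its lowest mean with both compounds. Against EpA alone, 0 members were higher and 5 lower (Gzma, Gzmb, Gzmc, Srgn, and Ifng), where 16% of all tested genes passed, 9.22% higher and 6.79% lower. The same 5 did not overlap between the groups (33.3% of all tested genes), and 1, Gzmc, was called at 1.5-fold (1.99% of all tested genes, 0.481% lower). Against fatostatin alone, 1 was higher (Srgn) and 5 lower (Gzma, Gzmb, Gzmc, Nkg7, and Ifng), where 29.5% of all tested genes passed, 16.2% higher and 13.3% lower. The same 6 did not overlap (41.4% of all tested genes). In that comparison 4 were called at 1.5-fold, all lower (3.75% of all tested genes in either direction, 1.86% lower). The comparisons share libraries and are not independent of one another.

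Gzma with both compounds was at 15.3, 17.5, and 15.8 FPKM, below all libraries of the other groups. It was 1.45-fold below EpA alone (log2 fold change −0.53, SE 0.0784, adjusted p = 0.000805) and 1.55-fold below fatostatin alone (log2 fold change −0.63, SE 0.0784, adjusted p = 0.000124). Gzmb was at 102.5, 105.0, and 105.9 FPKM, likewise below all other libraries (log2 fold change −0.17 against EpA, adjusted p = 0.000143, and −0.42 against fatostatin, adjusted p = 7.64e-08). Nkg7 was at 4.79, 4.97, and 6.35 FPKM, below the fatostatin libraries (log2 fold change −0.65, SE 0.110, adjusted p = 0.00104) and overlapping those of EpA (log2 fold change 0.24, 95% CI −0.0044 to 0.48, adjusted p = 0.181). Srgn was at 148, 154, and 155 FPKM, between its levels with EpA alone and with DMSO.

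Gzmc and Ifng were at their lowest with both compounds. Gzmc was at 1.63, 1.78, and 0.955 FPKM, from 35 to 66 reads, against 73 to 128 reads with EpA. The mean was 1.95-fold below EpA (log2 fold change −0.92, SE 0.246, adjusted p = 0.0267) and 1.93-fold below fatostatin (log2 fold change −0.93, SE 0.246, adjusted p = 0.0144). The difference from EpA no longer passed without EpA replicate 1 (adjusted p = 0.0825), without EpA replicate 2 (0.0994), without replicate 3 of both compounds (0.0862), or with these groups fitted alone (0.0962; range over the 21 alternatives 0.00946 to 0.0994). The difference from fatostatin no longer passed without fatostatin replicate 3 (adjusted p = 0.0566) or without replicate 3 of both compounds (0.0516; range 0.00576 to 0.0566).

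Ifng was at 1.27, 1.28, and 1.36 FPKM with both compounds, the tightest of its 4 groups. It was 1.88-fold below fatostatin alone (log2 fold change −0.86, SE 0.122, adjusted p = 0.000297), and all alternatives kept that call (adjusted p 8.4e-05 to 0.00191). Against EpA alone it was 1.35-fold lower (log2 fold change −0.39, SE 0.122), at the threshold of the test (adjusted p = 0.0499). Over the 21 alternatives that adjusted p ranged from 0.0241 to 0.155. It was 0.0662 with the replicate number as a block and 0.153 with voom. Leaving out any of 10 of the 12 libraries put it above 0.05, at 0.155 without EpA replicate 1. Without fatostatin replicate 3, 2 members in place of 4 were called against fatostatin, since Gzma then changed by less than 1.5-fold (log2 fold change −0.56) and Gzmc did not pass.

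**Figure D3:**
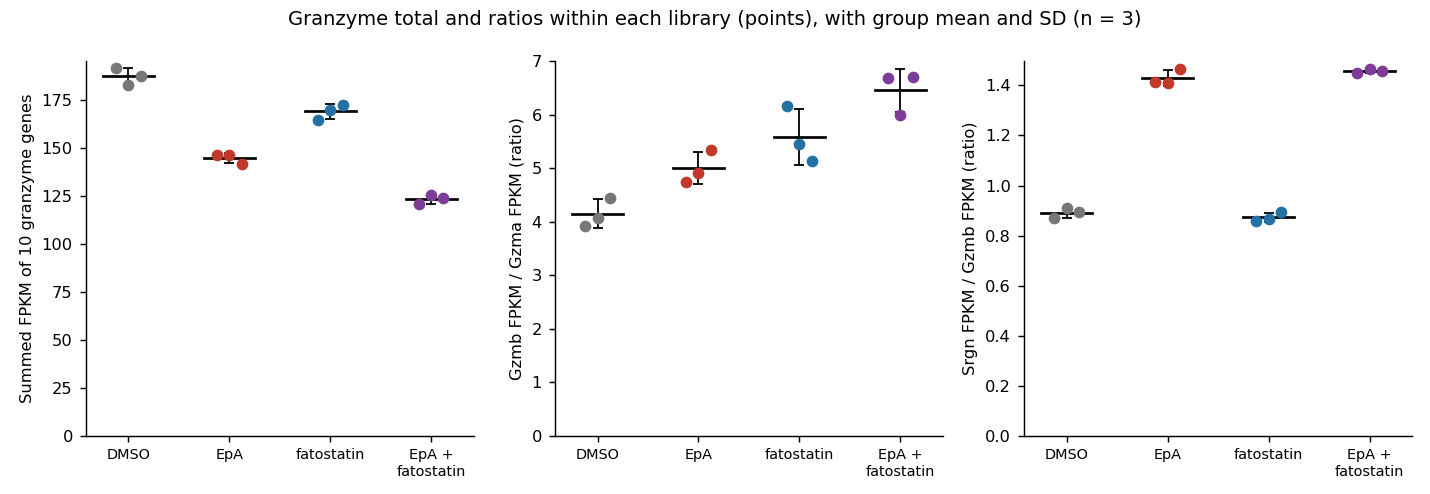
Left, summed FPKM of 10 granzyme genes, middle, the ratio of Gzmb to Gzma, and right, the ratio of Srgn to Gzmb, in each library (points) with group mean and SD (bars, n = 3, axes from 0). The sum fell from 187 in DMSO to 123 with both compounds, the middle ratio was 4.15 in DMSO and 6.46 with both, and the right ratio was near 0.9 without EpA and above 1.4 with it.

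Whether EpA acted differently in the presence of fatostatin was tested as the difference between its 2 effects. By limma, 0 of the 8 members passed, 2 had an unadjusted p below 0.05 (Gzmb and Ifng), and voom on recovered reads passed 0. Among all tested genes 0.0437% passed the adjusted p, 0% also reached 1.5-fold, and 1083 of 13733 had an unadjusted p below 0.05 by limma. For Gzma the difference was −0.03 on the log2 scale (95% CI −0.27 to 0.21), and for Srgn it was −0.03 (95% CI −0.11 to 0.04). For Ifng the effect of EpA was −0.31 without and −0.86 with fatostatin, a difference of −0.55 (95% CI −0.93 to −0.17, unadjusted p = 0.00851, adjusted p = 0.426). Averaged over cultures with and without fatostatin, a contrast added after the data were seen, EpA lowered Gzma by 1.5-fold or more (log2 fold change −0.61), as it did Nkg7 (−0.73), Ifng (−0.59, adjusted p = 0.000219), and Gzmc (−0.59, adjusted p = 0.0181). These 4 called members stand beside 3.55% of all tested genes called by that contrast, and 41.3% passed its adjusted p alone. Averaged over cultures with and without EpA, fatostatin changed Gzma (−0.52), Gzmb (−0.12), Gzmc (−0.57, adjusted p = 0.0317), and Srgn (−0.12), where 25.6% of all tested genes passed, with 0 members reaching 1.5-fold by limma (2.1% of all tested genes).

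The granzymes also changed in proportion to one another. The FPKM of 10 granzyme genes (the 6 named above with Gzmf, Gzmg, Gzmm, and Gzmn) summed to 187 ± 4.53 in DMSO, 145 ± 2.77 in EpA, 169 ± 4.08 in fatostatin, and 123 ± 2.34 with both. Gzmb made up 78.0% to 79.6% of the sum in the DMSO libraries and 83.8% to 85.4% with both compounds. The ratio of Gzmb to Gzma was 4.15 ± 0.270 in DMSO, 5.00 ± 0.304 in EpA, 5.59 ± 0.526 in fatostatin, and 6.46 ± 0.403 with both. Neither EpA nor fatostatin libraries overlapped DMSO in this ratio, while the 2 single-compound groups overlapped each other. The ratio of Srgn to Gzmb was 0.873 ± 0.0179 with fatostatin and 1.46 ± 0.0099 with both, so it followed the presence of EpA. An exact permutation test of 3 libraries against 3 cannot give a p below 0.1, and none is given for these ratios.

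Gzmd, Gzme, Gzmk, and Prf1 were near the limit of the measurement. Prf1 had 4 to 24 reads per library. It was at 0.254, 0.151, and 0.160 FPKM in DMSO, 0.156, 0.136, and 0.0548 in EpA, 0.0349, 0.175, and 0.172 in fatostatin, and 0.200, 0.186, and 0.151 with both. All 4 groups overlapped, and the log2 fold change with EpA was −0.44 with a 95% CI of −1.12 to 0.24, and did not pass. Gzmd had 0 to 14 reads per library and all comparisons overlapped. Gzme had reads in 3 libraries, 6 in fatostatin replicate 2 and 2 each in replicates 1 and 2 of both compounds, and 3 reads were worth 0.0738 to 0.0895 FPKM. Gzmk had 8, 14, and 8 reads in the DMSO libraries and 0 to 8 in the others, so DMSO lay above fatostatin (4 reads in each library) and overlapped EpA (0, 3, and 8 reads) and both compounds. Gzme and Gzmk fell below the mean of 0.1 FPKM that testing required, Gzmk with a mean of 0.0979. Without that filter the log2 fold change of Gzmk with EpA was −0.84 (SE 0.2998) and did not pass (adjusted p = 0.0918 by limma). Gzmk also overlaps Esm1 on the other strand, and whether reads were counted by strand is not stated. Of the 50-base windows of the exons of Gzmd and Gzme, 21.9% and 20.6% occur in other genes, mostly in each other, so their few reads are uncertain in assignment. That share was 4.14% for Gzmc and 0% for Gzma, Gzmb, Gzmk, Prf1, Nkg7, and Srgn. For Ifng 19.9% of windows also occur in the gene model Gm49751.

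The 4 granzyme genes outside the selection were Gzmf, Gzmg, and Gzmn of the chromosome 14 cluster, and Gzmm. Gzmf was higher with fatostatin (0.624 ± 0.163 against 0.281 ± 0.141 FPKM, log2 fold change 0.98, SE 0.276, adjusted p = 0.0361), from 16 to 30 reads against 4 to 14. Voom on recovered reads did not make that call. It had 16 to 18 reads with both compounds. Gzmm was between 0.368 and 0.506 FPKM in the group means and passed in no comparison. Gzmg had 0 to 4 reads and Gzmn was listed at 0 in all libraries. Within the cluster, Gzmb was the abundant gene, and the other 6 were at or below 3.30 FPKM in all group means.

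**Figure D4:**
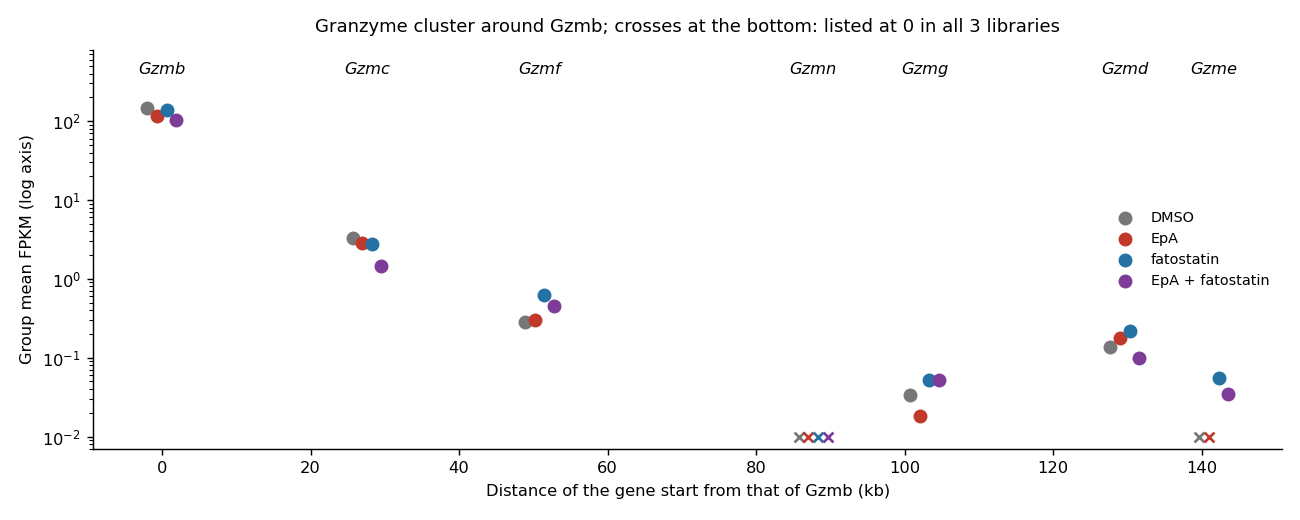
Group mean FPKM (y axis, log scale) of the 7 granzyme genes of the chromosome 14 cluster against the distance of each gene's start from that of Gzmb (x axis, kb), with the 4 groups as colors set slightly apart. Gzmb stands above 100 FPKM, Gzmc at 1.45 to 3.30, and the other 5 below 1, with crosses for means of 0.

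Genes that process granzymes or move granules were counted as a list of 25, and 23 could be tested. With EpA, 4 were higher and 7 lower (median log2 fold change −0.04; 14.3% and 13.1% of all tested genes), and 1 was called at 1.5-fold (3.38% of all tested genes). That was Ctsw (cathepsin W, a protease of cytotoxic lymphocytes), which had 35.2 ± 0.143 FPKM in DMSO and 22.0 ± 1.01 in EpA (log2 fold change −0.68, adjusted p = 1.85e-06). Cst7 (cystatin F, an inhibitor of the cathepsins that activate granzymes) was lower by 0.35 on the log2 scale with EpA (31.9 against 25.1 FPKM). Ctsc, the protease that removes the propeptide of granzymes, fell by 0.20 on the log2 scale (20.6 against 18.0 FPKM). Stx11, a syntaxin of granule fusion, rose by 0.27. With fatostatin, 6 were higher and 1 lower (median 0.03, beside 7.69% and 6.31% of all tested genes), with 0 called by limma and by voom (1.86% of all tested genes by limma). By limma 9 had an unadjusted p below 0.05, beside 3679 of the 13733 tested genes. Cultures with both compounds had 7 higher and 2 lower against EpA alone (median 0.04, beside 9.22% and 6.79% of all tested genes). Against fatostatin alone, they had 3 higher and 9 lower (median −0.02, beside 16.2% and 13.3% of all tested genes). Ctsw (−0.75) and Crtam, an adhesion receptor of cytotoxic CD4+ T cells (−0.70, from 34 to 93 reads), were called lower in that comparison (3.75% of all tested genes were called, 1.86% lower).

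Of 5 serpin genes that inhibit granzymes, 4 were tested. Serpinb6b was at 3.38 ± 0.269 FPKM in DMSO and 5.19 ± 0.225 with fatostatin, the 1 gene of this list called with fatostatin (log2 fold change 0.61, SE 0.0891, adjusted p = 0.000823), where 1.86% of all tested genes were called. Serpinb9, the mouse inhibitor of granzyme B, was at 1.57 ± 0.116 and 2.08 ± 0.162 FPKM (log2 fold change 0.39, adjusted p = 0.0128). Both were also higher with EpA plus fatostatin than with EpA (0.54 and 0.36). Against fatostatin alone, Serpinb6b was lower with both compounds (4.23 ± 0.525 against 5.19 ± 0.225 FPKM, log2 fold change −0.29, adjusted p = 0.0279). It was the 1 of the 4 that passed by limma in that comparison (29.5% of all tested genes passed). Voom on recovered reads passed 2 of the 4, both lower. The median of the 4 was 0.28 with fatostatin and −0.08 with EpA alone. With EpA alone 0 of the 4 passed by limma or voom (27.4% of all tested genes passed by limma). By limma 1 had an unadjusted p below 0.05, beside 5151 of the 13733 tested genes.

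Regulators of Th1 and cytotoxic programs made up a further list of 24 genes, and 23 could be tested. With EpA 7 were higher and 9 lower (median log2 fold change −0.07), beside 14.3% and 13.1% of all tested genes. Several factors that drive cytotoxic genes were among the lower ones. Tbx21 (T-bet) was at 3.87 to 3.97 FPKM in DMSO and 2.54 to 3.00 in EpA (log2 fold change −0.52, adjusted p = 0.000449), and Eomes was at 27 to 48 reads in DMSO and 9 to 15 in EpA (log2 fold change −0.90, adjusted p = 0.00779). Prdm1 (Blimp-1) and Stat4, which carries the IL-12 signal, were lower by 0.70 and 0.67 on the log2 scale. At 1.5-fold 3 were called lower (Eomes, Prdm1, and Stat4), and Il21 (1.31) and Bhlhe40 (0.68) were the 2 called higher. Of all tested genes 3.38% were called in either direction and 1.94% lower. Runx3, a factor that activates cytotoxic genes, was higher by 0.18 (22.8 against 25.9 FPKM). Fatostatin had 6 higher and 3 lower (median 0.05, beside 7.69% and 6.31% of all tested genes), with 0 called by limma and by voom (1.86% of all tested genes by limma). By limma 12 had an unadjusted p below 0.05, beside 3679 of the 13733 tested genes. Tbx21 (log2 fold change 0.33, adjusted p = 0.0150) and Runx3 (−0.26, adjusted p = 0.000255) were among the 12, each opposite in sign to its change with EpA.

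Receptor and response genes of IFN-γ were mostly lower with EpA and, in many cases, higher with fatostatin. All groups had an antibody to IFN-γ during the first days of culture, and whether these genes followed IFN-γ was not tested. Of 25 listed, 22 were tested, and Irf1 was also in the list of regulators. With EpA 2 were higher and 13 lower. Their median log2 fold change was −0.30 against 0.00 over all tested genes, where 14.3% were higher and 13.1% lower. The 5 called at 1.5-fold were all lower (3.38% of all tested genes were called, 1.94% lower). Iigp1, an interferon-induced GTPase, was at 7.59 ± 0.310 FPKM in DMSO and 2.89 ± 0.132 in EpA (log2 fold change −1.36, adjusted p = 1.03e-08). The others were the guanylate-binding protein genes Gbp7 (−0.91), Gbp6 (−0.85), Gbp3 (−0.68), and Gbp2 (−0.67). Irf1 (−0.32) and the receptor gene Ifngr1 (−0.28) were lower by less than 1.5-fold, while Cd274 (PD-L1) was higher (0.18, adjusted p = 0.0328). The other receptor gene, Ifngr2, was also higher with EpA, at 14.5 to 14.8 FPKM in DMSO and 15.9 to 16.2 in EpA.

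With fatostatin 11 of the 22 were higher and 0 lower by limma, with a median of 0.13, beside 7.69% and 6.31% of all tested genes. Of the 22 genes 0 were called by limma (1.86% of all tested genes), while 14 had an unadjusted p below 0.05, beside 3679 of the 13733 tested genes. By voom on recovered reads 13 were higher and 1 lower, the latter by at least 1.5-fold. Over all genes voom called 327 at 1.5-fold in that comparison. With both compounds against EpA alone 12 were higher and 0 lower (median 0.15, beside 9.22% and 6.79% of all tested genes), with Cd274 (0.67) and Gbp5 (0.62) called (1.99% of all tested genes). Ifng went the other way in that comparison (−0.39). Against fatostatin alone, both compounds had 1 higher and 13 lower (median −0.30, beside 16.2% and 13.3% of all tested genes), of which Iigp1 (−1.54), Gbp7 (−0.94), Gbp6 (−0.89), Irgm1 (−0.74), Gbp2 (−0.71), and Gbp3 (−0.62) were called (3.75% of all tested genes in either direction, 1.86% lower). The effect of EpA differed by the presence of fatostatin for 0 of the 22 by limma and by voom (0.0437% of all tested genes by limma). By limma 4 had an unadjusted p below 0.05, beside 1083 of the 13733 tested genes.

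**Figure D5:**
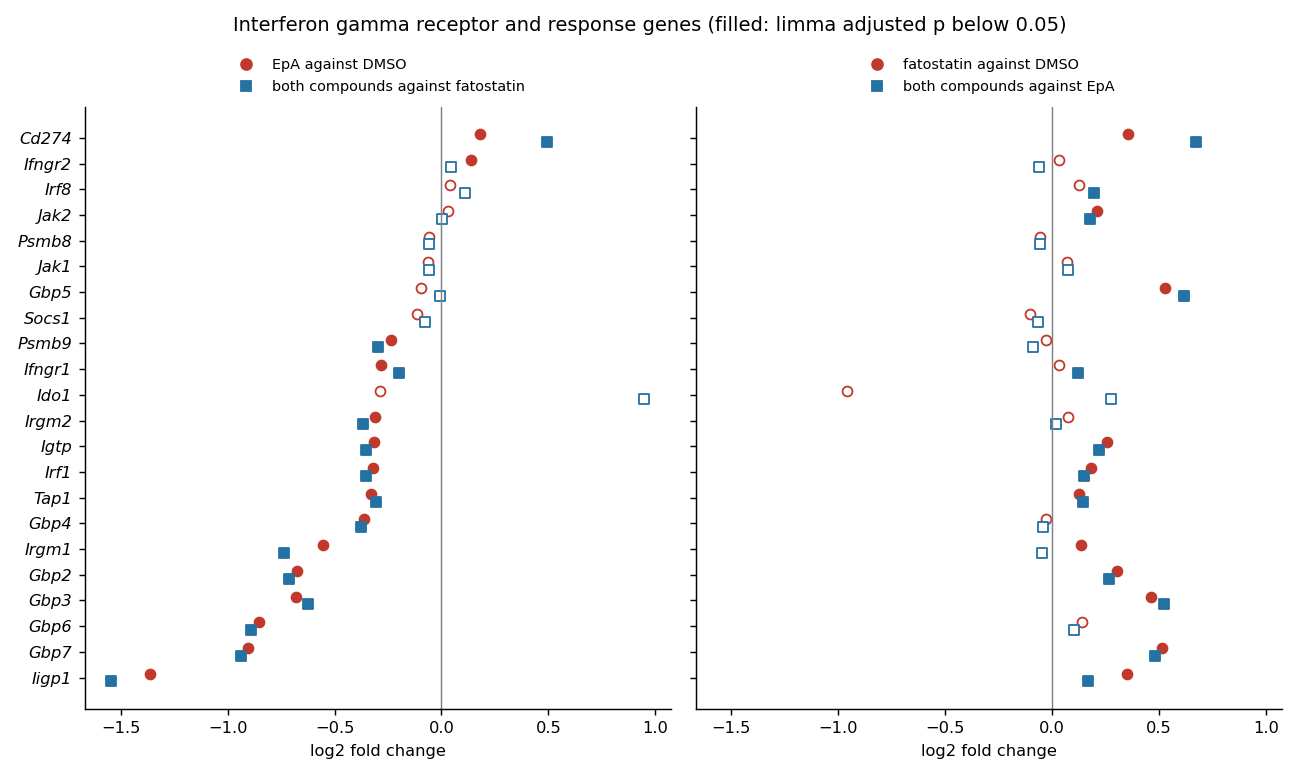
log2 fold changes (x axis) of the 22 tested receptor and response genes of IFN-γ (y axis), on the left for EpA against DMSO (circles) and both compounds against fatostatin (squares), on the right for fatostatin against DMSO (circles) and both compounds against EpA (squares). Filled symbols passed an adjusted p of 0.05, and the left panel has 13 lower in each comparison while the right has 11 and 12 higher and none lower.

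The genes most like each member across the 12 libraries were found by Pearson's r of log2(FPKM + 0.1) among the 10297 tested genes that averaged 1 FPKM or more. These values describe 12 libraries in 4 groups, so a shared order of the groups is enough for a high r. Gzma was most like Lck, the kinase of the T cell receptor (r = 0.989), and Tuba4a (0.986). Gzmb was most like Thy1, a surface protein of T cells (0.998), and Cd8a (0.993). Nkg7 was most like Abcg1, a cholesterol transporter (0.983), and Rps6 (0.963), and Srgn most like Eif2s2 (0.991) and H3f3b (0.991). Gzmc (Wdr5b, 0.913, and Ctss, 0.898) and Ifng (Marchf6, 0.957, and Sap130, 0.941) had lower values.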

How the data were processed

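RNA-seq values of 12 libraries, 3 in each of 4 groups taken from the sample labels, were analysed. The deposited values are FPKM, which the authors computed from featureCounts counts of reads trimmed by Trim Galore and mapped by HISAT2 on GRCm38. The annotation release and strand setting are not given in the sources used here. The table has 32352 lines for 32051 genes, and 301 repeated lines with identical values were dropped. All 12 value columns belong to a sample, and 0 others were present. Exon lengths came from GENCODE vM21 for 32003 genes. With them 98.4% to 98.6% of values were whole reads (within 0.05), a check of depth that covers counting error only.

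In R 4.3.3 with limma 3.58.1, log2(FPKM + 0.1) was fitted for the 13733 genes that averaged 0.1 FPKM or more, with 1 coefficient per group and a trended variance. Adding 0.1 understates the change of low genes. p-values are two-sided and adjusted by Benjamini-Hochberg over all tested genes. Called genes had an adjusted p under 0.05 together with a change of 1.5-fold or more, the thresholds of the authors. The script was tested on simulated data. Promoters were from RefSeq. All 10 members were named. From the lists, up to 5 called genes with the largest change per comparison were named, with others of general interest. Of the IFN-γ list, all 6 genes called with both compounds against fatostatin were named. The members and lists were chosen with earlier results of these data known. The averaged effects of each compound were added after the data were seen. Of the lists, 1 gene is not reported here and was left out of their counts.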

Additional observations from a re-analysis of the deposited data

How the results depend on the processing

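Besides the analysis as reported, 10 other settings and 12 fits that each left out 1 library were run. All of the planned ones kept the direction and the call of Gzma, Gzmb, Nkg7, and Srgn with EpA, of Gzma with fatostatin, and of Gzma, Gzmb, Nkg7, Srgn, and Ifng with both compounds against fatostatin (adjusted p only). The median log2 fold change of all genes moved by under 0.1 with TPM or median-ratio scaling. The number of members called was 2 for EpA against DMSO, and it was 1 with a pseudocount of 1, 4 with no fold threshold, 4 for the effect averaged with and without fatostatin, and 1 to 2 leaving out a library. For fatostatin against DMSO it was 0, and 3 with no fold threshold. For both compounds against EpA it was 1, and it was 5 with no fold threshold, 0 with only these groups fitted, and 0 to 2 leaving out a library (0 without EpA replicate 1, EpA replicate 2, or replicate 3 of both compounds, and 2 without EpA replicate 3 or replicate 2 of both compounds). For both compounds against fatostatin it was 4, and it was 6 with no fold threshold, 3 with a pseudocount of 1, and 2 to 4 leaving out a library (2 without fatostatin replicate 3, and 3 without replicate 1 or 3 of both compounds). The averaged effects turned the sign of values that had not passed, to −0.26 for Gzmd with EpA, and to −0.078 for Gzmd, 0.0014 for Prf1, and −0.12 for Ifng with fatostatin. Leaving out 1 library turned the sign of Nkg7 with fatostatin (−0.00224 without DMSO replicate 1; range −0.00224 to 0.116) and of the change in the effect of EpA on Gzma with fatostatin (range −0.112 to 0.0325). The cause was not tested.

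Among all tested genes, 464, 255, 273, and 515 were called in the 4 comparisons in the order of the report. These counts were 141, 89, 84, and 161 with a pseudocount of 1, which shrinks low genes, 216, 143, 147, and 252 with a mean of at least 1 FPKM, which tests fewer genes, and 3759, 1922, 2199, and 4051 with no fold threshold. For the change in the effect of EpA with fatostatin the count was 0, and 1 with a pseudocount of 1, no filter, TPM, or voom, 2 with a pseudocount of 0.01, and 0 to 2 leaving out a library.

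Replicate numbers are shared by the groups, but same-numbered libraries did not deviate together (18 pairs, r −0.0472 to 0.0744, 0 pairs over 0.1). These correlations cannot tell whether same-numbered libraries shared a mouse, culture, or preparation, which the sources do not state. With the replicate number as a block, members called were 2, 0, 1, 4, and 0 in the 5 comparisons, and the 1 change of a call was Ifng with both compounds against EpA (adjusted p = 0.0662). Genes called with the block were 449, 252, 266, and 499. Gzmd, Gzme, Gzmk, and Prf1 rested on at most 24 reads in any library, which limits the precision of their values.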
